A study of Mus musculus with 6 samples.

Results

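Glycosphingolipids are membrane lipids in which a ceramide anchor carries a chain of sugars. The 9 enzymes described here, encoded by Ugcg, B4galt5, B4galt6, St3gal5, St8sia1, B4galnt1, B3galt4, A4galt and B3gnt5, add the early sugars of that chain. Their transcripts were measured on Affymetrix arrays in mouse acute lymphoblastic leukaemia driven by BCR-ABL1, the kinase made by the Philadelphia chromosome translocation. The arrays hold no measure of the enzyme proteins, their activity or the lipids. The series compares leukaemia that expresses activation-induced cytidine deaminase (AID) with leukaemia that lacks it. Labels give 3 arrays of AID-/- leukaemia cells and 3 of AID+/+ leukaemia cells, all of strain Balb/c, each made from 6 micrograms of total RNA. How BCR-ABL1 was introduced, and the age of the animals, are not given in the sources used here. The titles call the 3 arrays of a group biological replicates without saying that they came from separate animals, so the spread between them may be technical in part.

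Every probe set that the array annotation assigns to exactly 1 of the 9 symbols was taken, which gave 21 of 45037 probe sets and 9 of 18193 genes. Ugcg and B4galt6 had 4 probe sets each, St8sia1 had 3, B4galt5, St3gal5, B4galnt1 and B3gnt5 had 2 each, and B3galt4 and A4galt had 1 each. The members were selected on these same log2 values, with the difference between AID-/- and AID+/+ leukaemia already known, so their differences are a description and carry no test. All values are log2 expression values as deposited. Without detection calls, a probe set is called dim here where both group means lay below 4.88, the median of all values.

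The pathway branches early. UGCG adds glucose to ceramide, and B4GALT5 or B4GALT6 adds galactose to make lactosylceramide, the common precursor. From there ST3GAL5 makes the ganglioside GM3 and ST8SIA1 extends it to GD3, B4GALNT1 adds N-acetylgalactosamine and opens the ganglio-series (GM2, GD2 and asialo-GM2), and B3GALT4 adds the next galactose (GM1, GD1b). A4GALT opens the globo-series by making globotriaosylceramide, known in B cells as CD77. B3GNT5 opens the lacto- and neolacto-series by adding N-acetylglucosamine to the same lactosylceramide. B4GALNT1, B3GNT5, A4GALT and ST3GAL5 can thus each act on lactosylceramide, B4GALNT1 also on GM3 and GD3.

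RefSeq promoter windows (GRCm38.p6; 250 bases before to 50 after the gene's start) were found for 7 of the 9 members, Ugcg, B4galt5, St3gal5, St8sia1, B3galt4, A4galt and B3gnt5. The 250 bases before the start are shown for the 3 of these whose probe sets differed most between the groups. They are chr4:59189300-59189549 on the + strand, chr17:33951489-33951738 on the - strand and chr16:19759984-19760233 on the + strand, each written 5′ to 3′ along the gene. Capitals mark matches, on either strand, to the 6 motifs searched: the GC box GGGCGG, the CCAAT box CCAAT, the TATA box TATAAA, the E-box CANNTG, the ETS core CCGGAA and the STAT site TTCNNNGAA.
Ugcg: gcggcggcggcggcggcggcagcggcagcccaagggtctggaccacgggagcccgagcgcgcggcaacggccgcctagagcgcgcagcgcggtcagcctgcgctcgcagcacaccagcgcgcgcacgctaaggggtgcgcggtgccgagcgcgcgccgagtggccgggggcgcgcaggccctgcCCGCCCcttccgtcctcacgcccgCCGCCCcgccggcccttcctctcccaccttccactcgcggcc
B3galt4: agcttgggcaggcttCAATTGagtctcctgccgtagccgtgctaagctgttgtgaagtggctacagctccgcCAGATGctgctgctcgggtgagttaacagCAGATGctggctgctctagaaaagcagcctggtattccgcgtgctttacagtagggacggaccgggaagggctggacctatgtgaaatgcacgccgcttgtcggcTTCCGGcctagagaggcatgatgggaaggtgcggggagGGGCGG
B3gnt5: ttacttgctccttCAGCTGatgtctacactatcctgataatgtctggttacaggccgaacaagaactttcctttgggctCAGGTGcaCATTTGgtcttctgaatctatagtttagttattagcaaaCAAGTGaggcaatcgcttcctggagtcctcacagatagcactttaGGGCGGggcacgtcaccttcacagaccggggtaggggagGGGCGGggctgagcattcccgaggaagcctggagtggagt

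All 7 member windows of 300 bases held a GC box, which 35.7% of 32851 promoter windows of that length hold. The member windows were richer in G and C than 51.4% (B3gnt5) to 99.3% (Ugcg) of all windows. The shares over all windows were not matched for this, so no excess of GC boxes is read. None of the 7 held a TATA box or a STAT site, present in 13.6% and 8.3% of all windows. An E-box lay in 5 of 7 (72.3% of all windows), a CCAAT box in St3gal5 and St8sia1 (37.4%) and an ETS core in B3galt4 alone (14.9%). The window of Ugcg was 81.3% G and C and had 2 GC boxes and 0 E-boxes, whereas that of B3gnt5 was 53.3% G and C with 2 GC boxes and 5 E-boxes. These are letter matches only.

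At the branch from lactosylceramide the transcripts of the ganglio-series and lacto-series enzymes differed in opposite directions. B4galnt1 was higher in AID-/- leukaemia by 3.84 (SE 0.22) at its brighter probe set, or 14.3-fold, and B3gnt5 was lower by 3.37 (SE 0.59), or 10.3-fold, each with 3 arrays a group. Ugcg and B3galt4 were higher by smaller amounts, at most 1.07 (SE 0.25) and 0.54 (SE 0.13). St3gal5 and B4galt5 were close between the groups, and B4galt6, St8sia1 and A4galt were dim at every probe set. Over the 21 probe sets the median difference was 0.03, against -0.04 over all 45037.

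**Figure D1:**
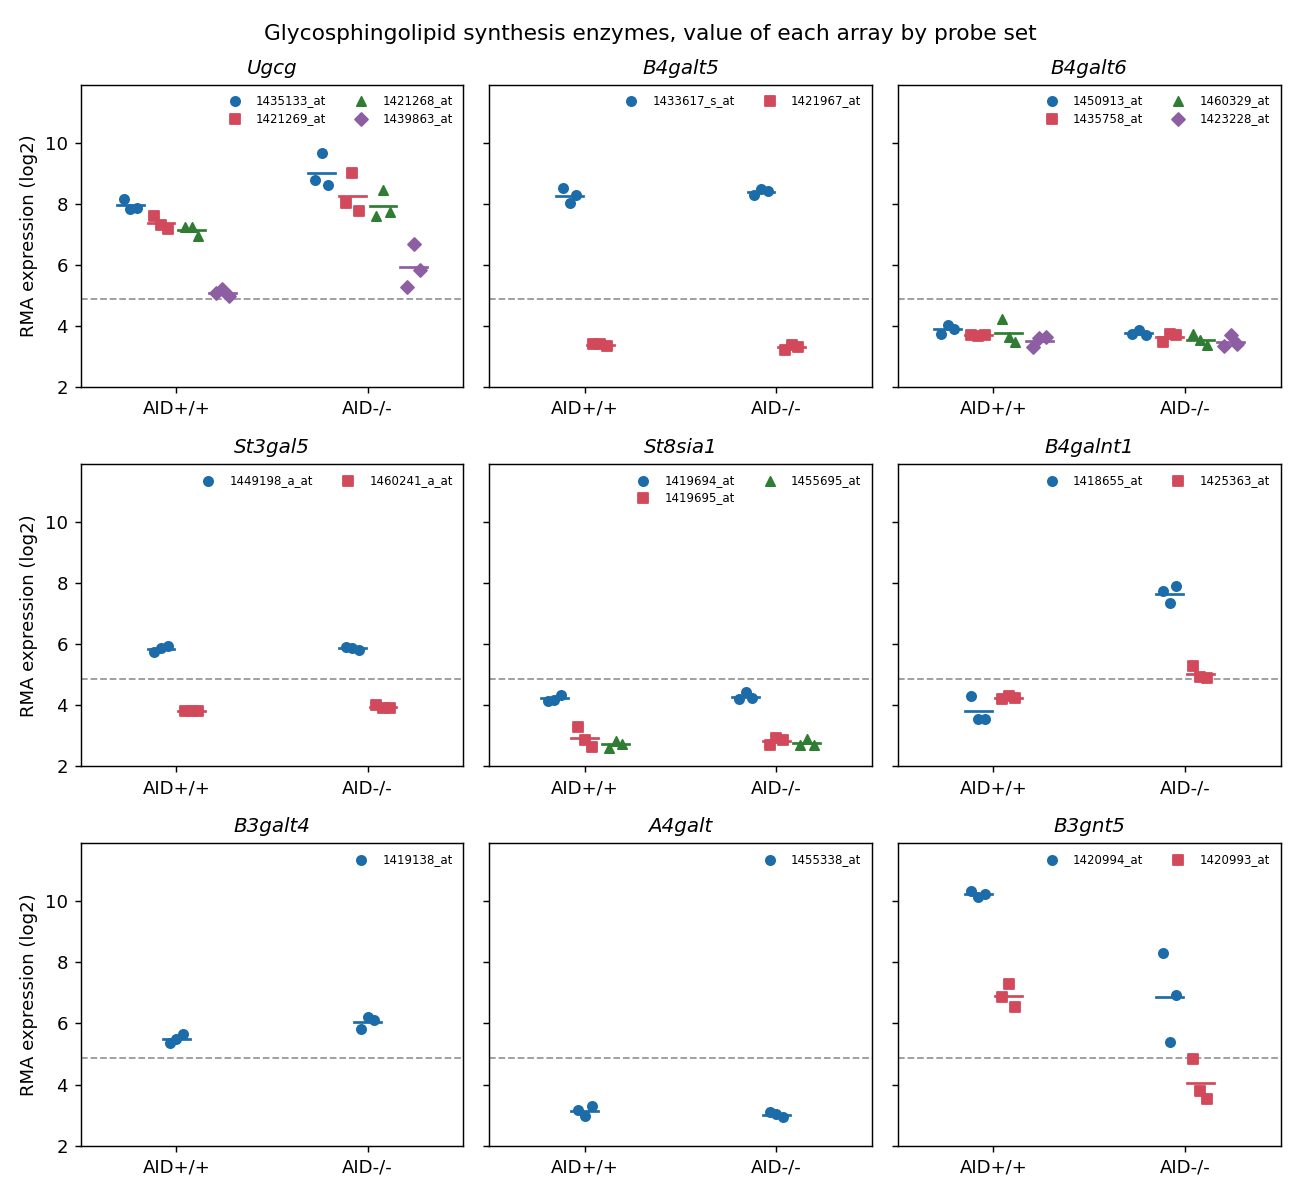
Log2 expression value of each of the 6 arrays (vertical axis) by group, 1 panel for each of the 9 genes. Symbols and colours mark probe sets, short bars the group means, and the dashed line the median of all values, 4.88. B4galnt1 lies above the line in AID-/- and below it in AID+/+ arrays, B3gnt5 is lower in AID-/-, and B4galt6, St8sia1 and A4galt lie below the line throughout.

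Ugcg, whose product commits ceramide to the pathway, was read by 4 probe sets. At the brightest (1435133_at) the AID-/- arrays were at 8.78, 9.67 and 8.63 in replicates 1, 2 and 3, and the AID+/+ arrays at 8.16, 7.84 and 7.87. The groups did not overlap, and AID-/- replicate 2 stood above the other AID-/- arrays. At 1421269_at the values were 8.02, 9.03 and 7.78 in AID-/- and 7.62, 7.30 and 7.19 in AID+/+ leukaemia. At 1421268_at they were 7.62, 8.45 and 7.73 against 7.25, 7.25 and 6.94. All 4 probe sets had non-overlapping groups and the highest value in AID-/- replicate 2. The dimmest, 1439863_at, read 5.29, 6.68 and 5.85 against 5.08, 5.21 and 4.98. The difference was 1.07 (SE 0.25) at 1435133_at, 0.91 (SE 0.29) at 1421269_at, 0.79 (SE 0.21) at 1421268_at and 0.85 (SE 0.30) at 1439863_at. Without AID-/- replicate 2 the differences were 0.74, 0.53, 0.53 and 0.48, smaller but still above 0.

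Of the lactosylceramide synthase genes, B4galt5 had a probe set above the dim range and B4galt6 had none. B4galt5 at 1433617_s_at was at 8.29, 8.48 and 8.42 in AID-/- and 8.51, 8.04 and 8.29 in AID+/+ leukaemia. The groups overlapped, the highest and the lowest value both being in AID+/+ arrays, and the difference was 0.12 (SE 0.13). The suffix _s_at marks probes that can match several related transcripts, so this signal may not belong to B4galt5 alone. Its other probe set, 1421967_at, was dim, between 3.23 and 3.43 on the 6 arrays. B4galt6 was dim at all 4 probe sets, with array values of 3.33 to 4.23 and differences of -0.23 to -0.03 (SE 0.10 to 0.19), and its groups overlapped at each of them.

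The sialyltransferases that start the GM3 and GD3 line showed little difference. St3gal5, which encodes GM3 synthase, was at 5.90, 5.88 and 5.83 in AID-/- and 5.75, 5.89 and 5.94 in AID+/+ leukaemia at 1449198_a_at. These groups overlapped and differed by 0.01 (SE 0.09). At the dim probe set 1460241_a_at the AID-/- arrays read 4.01, 3.92 and 3.93 and the AID+/+ arrays 3.82, 3.81 and 3.82. The groups did not overlap there, but by a difference of only 0.14 (SE 0.08). St8sia1, which encodes GD3 synthase, had 3 dim probe sets with values of 2.62 to 4.43 and differences of -0.09 to 0.05 (SE 0.10 to 0.16). Values this low on the scale hold little order.

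B4galnt1, the GM2 and GD2 synthase gene, showed the largest increase among the members. At 1418655_at the AID-/- arrays read 7.73, 7.36 and 7.90 and the AID+/+ arrays 4.32, 3.57 and 3.57. The groups lay far apart, with all AID+/+ arrays below the median of all values and all AID-/- arrays well above it. The difference of 3.84 (SE 0.22) ranked 103 of 45037 probe sets by size. At 1425363_at the values were 5.28, 4.94 and 4.90 against 4.21, 4.30 and 4.25. The groups were again separate and in the same order, but the difference was 0.79 (SE 0.12), or 1.73-fold. The probe sets therefore agreed in direction and not in size, and their mean differed by 2.31 (SE 0.13). Because the AID+/+ values at 1418655_at lie near the lower end of the scale, the size of its fold is approximate. Leaving out 1 array at a time gave differences of 3.72 to 4.09 at 1418655_at and 0.67 to 0.86 at 1425363_at.

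B3galt4, which encodes the enzyme acting next after B4GALNT1, was at 5.82, 6.20 and 6.11 in AID-/- and 5.36, 5.50 and 5.64 in AID+/+ leukaemia. The groups did not overlap, but the gap between the lowest AID-/- array and the highest AID+/+ array was narrow. The difference was 0.54 (SE 0.13), or 1.46-fold, on the gene's only probe set, and it was in the same direction as that of B4galnt1.

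A4galt, the globo-series enzyme, was dim at its only probe set, with 3.09, 3.03 and 2.94 in AID-/- and 3.16, 2.98 and 3.31 in AID+/+ leukaemia. The groups overlapped and differed by -0.13 (SE 0.11). At a signal this low a change in the transcript would be hard to see.

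B3gnt5, the gene of the enzyme that starts the lacto-series, was at 10.35, 10.15 and 10.25 in AID+/+ leukaemia at 1420994_at. The AID-/- arrays were at 8.30, 5.40 and 6.93. All 3 were below every AID+/+ array, yet they spread by an SD of 1.45, against 0.10 among AID+/+ arrays. AID-/- replicate 2, the highest array for Ugcg, was the lowest here, and replicate 1 had the most signal. At 1420993_at the AID-/- arrays read 4.84, 3.80 and 3.52 and the AID+/+ arrays 6.86, 7.29 and 6.55. The groups again did not overlap, although the lowest AID-/- array was now replicate 3. The differences were -3.37 (SE 0.59) and -2.85 (SE 0.33), ranking 169 and 255 of 45037 by size, and their mean was -3.11 (SE 0.43). With 1 array left out, the difference at 1420994_at lay between -4.08 (without AID-/- replicate 1) and -2.63 (without AID-/- replicate 2). In RNA from a whole sample, fewer cells with the transcript and less transcript per cell cannot be told apart.

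**Figure D2:**
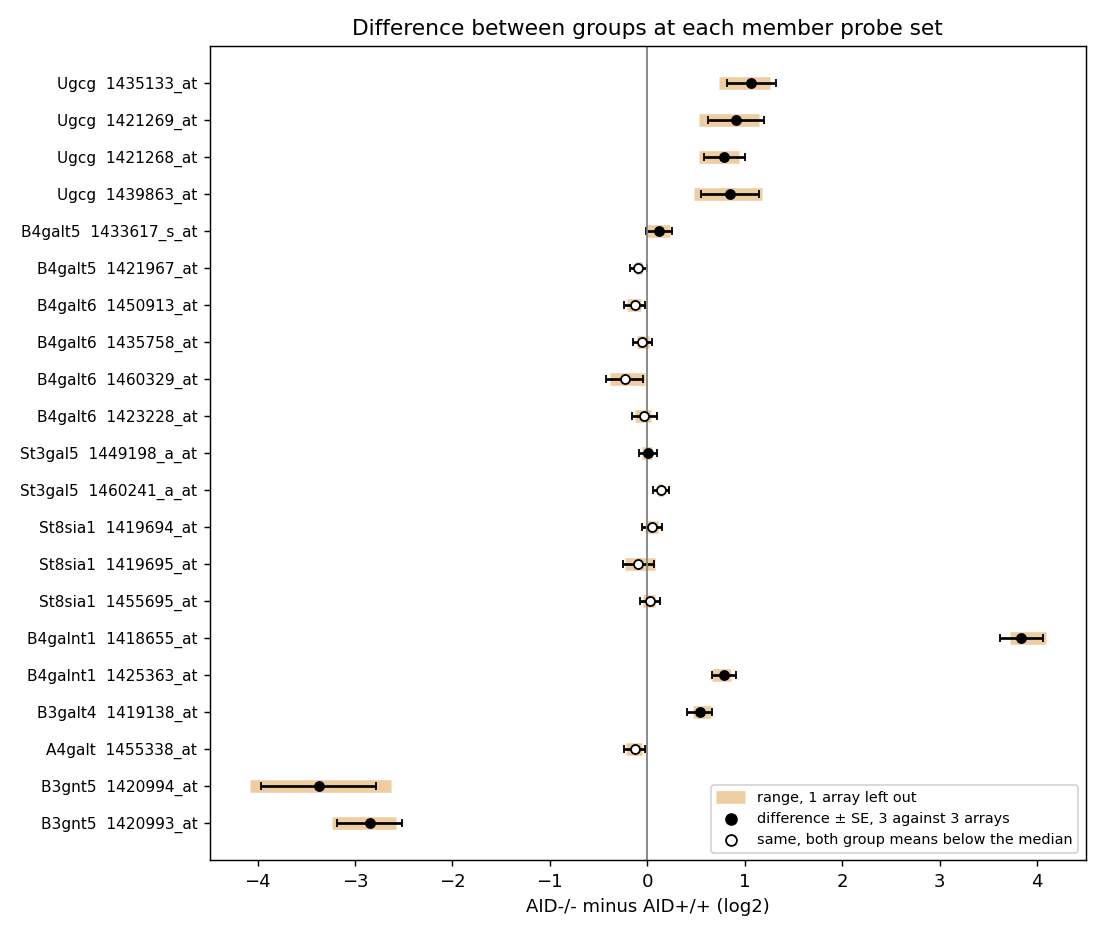
Difference AID-/- minus AID+/+ (log2, horizontal axis) at each of the 21 probe sets, with the SE of the fit as bars and the range over the 6 fits that leave out 1 array as a band. Open circles are dim probe sets. B4galnt1 probe set 1418655_at at 3.84 and the B3gnt5 probe sets at -3.37 and -2.85 stand apart from the other 18, which lie between -0.23 and 1.07.

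Counted over probe sets, 5 of the 21 were higher and 2 were lower in AID-/- leukaemia at a limma adjusted p under 0.05, and 14 were not past it. Over all 45037 probe sets 14.6% were past it, 7.24% higher and 7.39% lower; without AID+/+ replicate 3 the number past it was 4307 in place of 6589. Groups did not overlap at 10 of the 21 probe sets, 8 higher and 2 lower, while 32.9% of all probe sets had non-overlapping groups (14.2% higher and 18.7% lower). Since the members were chosen with this contrast in view, nothing is read from these counts. The 7 probe sets past the threshold came from 4 of the 9 genes, Ugcg, B4galnt1, B3galt4 and B3gnt5. Both probe sets of B4galnt1 and of B3gnt5 stayed past the threshold whichever array was left out. In the ordinary linear model, without moderation of the variances, 1418655_at of B4galnt1 was the 1 member probe set that stayed past it, and its probe set 1425363_at and both of B3gnt5 lost the call. The call at 1435133_at of Ugcg was lost without AID+/+ replicate 2 or 3, and that at 1421268_at without AID-/- replicate 3 or any single AID+/+ array. For B3galt4 the call was lost when any of AID-/- replicates 2 and 3 and AID+/+ replicates 1 and 2 was left out. Higher member probe sets numbered 2 without AID+/+ replicate 2, 3 without AID+/+ replicate 1 or 3, and 4 to 6 without an AID-/- array, and the 2 lower ones were called in all 6 fits.

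Array medians were 4.85 to 4.90, and Pearson's r across probe sets was 0.991 to 0.996 within groups and 0.972 to 0.977 between them. All 7 measured B-lineage markers, among them Cd79a, Ebf1, Vpreb1 and Igll1, lay above the array median on every array, with list means of 11.50 to 11.66 in AID-/- and 11.42 to 11.64 in AID+/+ leukaemia. T cell markers (8 measured, means 4.18 to 4.23 and 4.14 to 4.28), erythroid markers (5 measured, 4.52 to 4.66 and 4.51 to 4.64) and stromal and endothelial markers (8 measured, 4.49 to 4.57 and 4.52 to 4.58) had close list means, and 0 of these were past the limma threshold (2, both erythroid, at an unadjusted p under 0.05). Of 10 myeloid markers (list means 4.11 to 4.23 and 4.09 to 4.41), 4 had an unadjusted p under 0.05 and 7 were below the array median on all arrays. Of these 4, Lyz2 rose by 0.76 (SE 0.21, limma adjusted p = 0.0436), and the others were not past the threshold: Itgam differed by 1.06 (SE 0.43), Csf1r by -0.30 (SE 0.09) and Adgre1 by -0.43 (SE 0.14). Of 5 measured neural markers (5.90 to 6.29 and 6.29 to 6.48) 0 were past the limma threshold (1 at an unadjusted p under 0.05). Above the array median on every array were 3 T cell, 2 myeloid, 1 erythroid, 2 stromal and endothelial and 3 neural markers. The share of all genes at an unadjusted p under 0.05 was not computed. Whether the myeloid marker values bear on any member was not tested. Xist was at 4.35 to 6.02 in AID-/- and 11.93 to 12.18 in AID+/+ arrays, and the Y-linked Kdm5d at 7.62 to 7.74 against 2.42 to 2.68. Y-linked Uty was at 6.07 to 6.41 against 2.54 to 2.75, while Eif2s3y, also Y-linked, was at 8.85, 3.67 and 2.71 in AID-/- replicates 1, 2 and 3 against 2.51 to 2.59 and was not past the threshold (limma adjusted p = 0.264). For every member, every pathway gene given below and the counts over all probe sets and genes, the effects of sex and of genotype cannot be told apart.

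Beyond the members, 4 lists of pathway genes were examined at 1 probe set per gene. Of 89 measured genes 17 rose and 8 fell in AID-/- leukaemia, or 28.1%, against 18.5% of all 18193 genes (10.1% higher and 8.42% lower). The share ran from 9.52% of the breakdown list to 47.1% of the sugar supply list. Their median difference was 0.05, against -0.03 over all genes. The shares were not matched for brightness, and 25 of the 89 genes were dim. With dim probe sets filtered out, 3355 genes were called over the whole table in place of 3371. That filter left fewer genes to test, 64 of the 89 among them, so these counts are not shares of the same set. For this reason, and because the lists were chosen with earlier results known, no excess is read from the 28.1%. Without AID+/+ replicate 3, 2142 genes were called over the whole table in place of 3371.

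The supply of sugars and sialic acid had 0 dim genes and the largest called share of the 4 lists. The ceramide, transferase and breakdown lists had 6, 13 and 6 dim genes, so the shares were not compared at equal brightness. Of the 17 supply genes 6 were higher, 2 lower and 9 not past the threshold, with a median of 0.26. Without AID+/+ replicate 2, 3 were higher. Nans, which makes sialic acid phosphate, was at 9.87, 9.60 and 9.70 in AID-/- and 8.86, 9.11 and 9.08 in AID+/+ leukaemia and rose by 0.71 (SE 0.11, adjusted p = 0.00364). Gne, the enzyme gene at the entry to sialic acid synthesis, rose by 0.57 (SE 0.10, adjusted p = 0.00755), and the second probe set of each of these genes rose too. Ugdh, which oxidises UDP-glucose, the donor sugar of UGCG, rose by 0.59 (SE 0.08, adjusted p = 0.00196). Its arrays read 8.71, 8.76 and 8.77 against 8.11, 8.21 and 8.15, a narrow spread in both groups. Galt, an enzyme gene of galactose use, fell by 0.65 (SE 0.10, adjusted p = 0.00421). The other gene that fell was Cmah, named after its values were seen, whose product turns N-acetyl- into N-glycolylneuraminic acid. It was at 5.77, 4.94 and 4.98 against 6.30, 6.54 and 6.19 and fell by 1.11 (SE 0.22, adjusted p = 0.0104), with all 6 probe sets lower and 4 past the threshold over all probe sets.

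Ceramide and sphingomyelin synthesis, which feeds UGCG with its substrate, had 4 of 18 genes higher, 0 lower and 14 not past the limma threshold, with a median of 0.15. At an unadjusted p under 0.05 there were 7 higher and 1 lower, but that share was not computed over all genes, so no excess is read. These counts take the brightest probe set of each gene. Sgms1 differed by -0.57 (SE 0.21) there and by -0.52, -0.59 and -0.88 at its others, 2 of them past the threshold. Cert1 differed by 0.22 (SE 0.09) there and by 0.67, 0.50 and 0.59 at its others, 3 of them past the threshold. Both genes were named after their values were seen. Sptlc2 and Sptlc1, subunits of the serine palmitoyltransferase that starts sphingolipid synthesis, rose by 0.55 (SE 0.12, adjusted p = 0.0181) and 0.42 (SE 0.10, adjusted p = 0.0257). Cers4, a ceramide synthase gene, rose by 0.38 (SE 0.10) and Ormdl1, a regulator of serine palmitoyltransferase, by 0.37 (SE 0.10). The call on Sptlc2 was lost without AID+/+ replicate 2 or 3, that on Sptlc1 unless the array left out was AID-/- replicate 1 or AID+/+ replicate 2, that on Cers4 unless it was AID-/- replicate 3, and that on Ormdl1 in each of the 6 fits (adjusted p up to 0.128 among them). In the list 3 genes were higher without AID-/- replicate 1, 2 without AID-/- replicate 3, 1 without AID-/- replicate 2 or AID+/+ replicate 1 or 2, and 0 without AID+/+ replicate 3; 1 was lower without AID-/- replicate 1. With probe sets averaged, Sptlc1 and Sptlc2 did not pass, and the other probe sets of Sptlc2 differed by -0.03 (SE 0.08) and 0.20 (SE 0.15).

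The remaining transferases and lipid transfer proteins, which extend or cap the chains, moved in both directions, with 5 of 33 higher, 6 lower, 22 not past the threshold and a median of -0.03. Higher genes numbered 2 without AID+/+ replicate 2 and 3 without AID+/+ replicate 3 or AID-/- replicate 3, and lower genes 3 when AID-/- replicate 3 or either of AID+/+ replicates 1 and 3 was left out. B3gnt2, which extends poly-N-acetyllactosamine chains, was at 9.98, 10.29 and 10.07 in AID-/- and 9.16, 9.04 and 8.98 in AID+/+ leukaemia. It rose by 1.05 (SE 0.11, adjusted p = 0.000554), and by 1.16 (SE 0.14) at its other probe set. This relative of B3gnt5, also an N-acetylglucosaminyltransferase, thus differed in the direction opposite to B3gnt5. St3gal6, a sialyltransferase of galactose ends, rose by 0.88 (SE 0.17, adjusted p = 0.0101), although 3 of its 5 probe sets differed by -0.07 to 0.02.

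St6gal1, which adds alpha-2,6-linked sialic acid and in B cells makes the ligand of CD22, was at 10.33, 8.96 and 9.94 in AID-/- and 11.21, 11.23 and 11.41 in AID+/+ leukaemia. It fell by 1.54 (SE 0.30, adjusted p = 0.0104) at this probe set and by 1.29 (SE 0.28) at the other. AID-/- replicate 2 was the lowest array, as for B3gnt5 at 1420994_at. B4galt4, a galactosyltransferase of the family of B4galt5 and B4galt6, fell by 1.09 (SE 0.22, adjusted p = 0.0114), from 8.23, 7.92 and 8.16 to 6.91, 6.61 and 7.54.

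Breakdown enzymes had the smallest called share, with 2 of 21 genes higher, 0 lower, 19 not past the limma threshold and a median of 0.02. At an unadjusted p under 0.05 there were 4 higher and 3 lower, again without the share over all genes, so nothing is read from them. These counts, too, take the brightest probe set of each gene. At another probe set past the threshold, Scarb2 differed by 0.81 (SE 0.12), Neu1 by -0.49 (SE 0.12) and Galc by -0.44 (SE 0.10). Acer3, an alkaline ceramidase gene, rose by 1.43 (SE 0.21, adjusted p = 0.00304) on a dim probe set, with AID-/- arrays at 4.26, 3.56 and 4.41 and AID+/+ arrays at 2.82, 2.64 and 2.49. Of its 3 other probe sets 1 differed by 1.11 (SE 0.32) and the others by -0.12 and -0.13. Hexa, a subunit of the lysosomal enzyme that removes the N-acetylgalactosamine added by B4GALNT1, was at 5.71, 4.87 and 5.57 against 4.33, 4.53 and 4.85. It rose by 0.81 (SE 0.23, adjusted p = 0.0428), but AID-/- replicate 2 lay only just above the highest AID+/+ array, and it remained past the threshold only when AID-/- replicate 2 was the array left out (adjusted p up to 0.137 in the 5 other fits). Gla, the globotriaosylceramide-cleaving alpha-galactosidase, and Arsa, the sulfatide-cleaving sulfatase, differed by 0.37 (SE 0.11, adjusted p = 0.0628) and -0.38 (SE 0.13, adjusted p = 0.0793). In this list 1 gene was higher without AID-/- replicate 3 or any single AID+/+ array, and 2 were lower without AID-/- replicate 3.

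**Figure D3:**
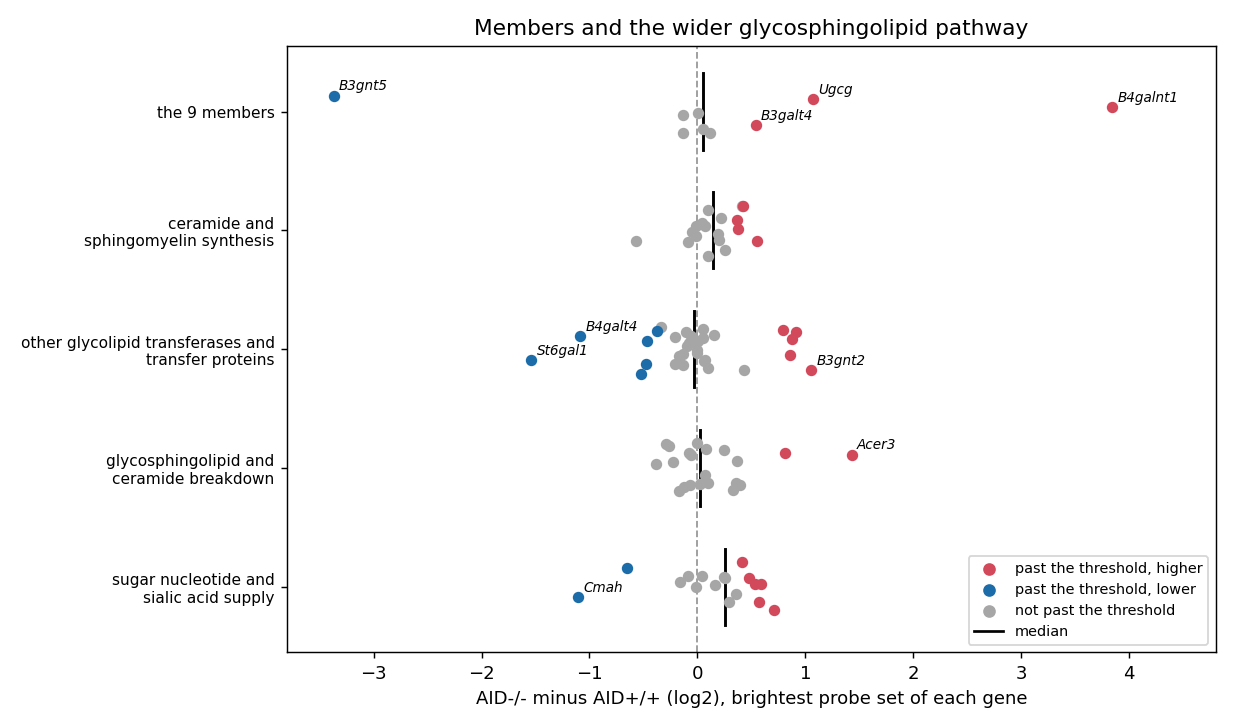
Difference AID-/- minus AID+/+ (log2, horizontal axis) for the 9 members and the measured genes of 4 pathway lists, 1 point per gene at its brightest probe set, coloured by whether the gene was past the limma threshold. Vertical bars are medians, and points are spread vertically for visibility. B4galnt1 and B3gnt5 lie beyond every gene of the 4 lists, which range from -1.54 to 1.43.

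**Figure D4:**
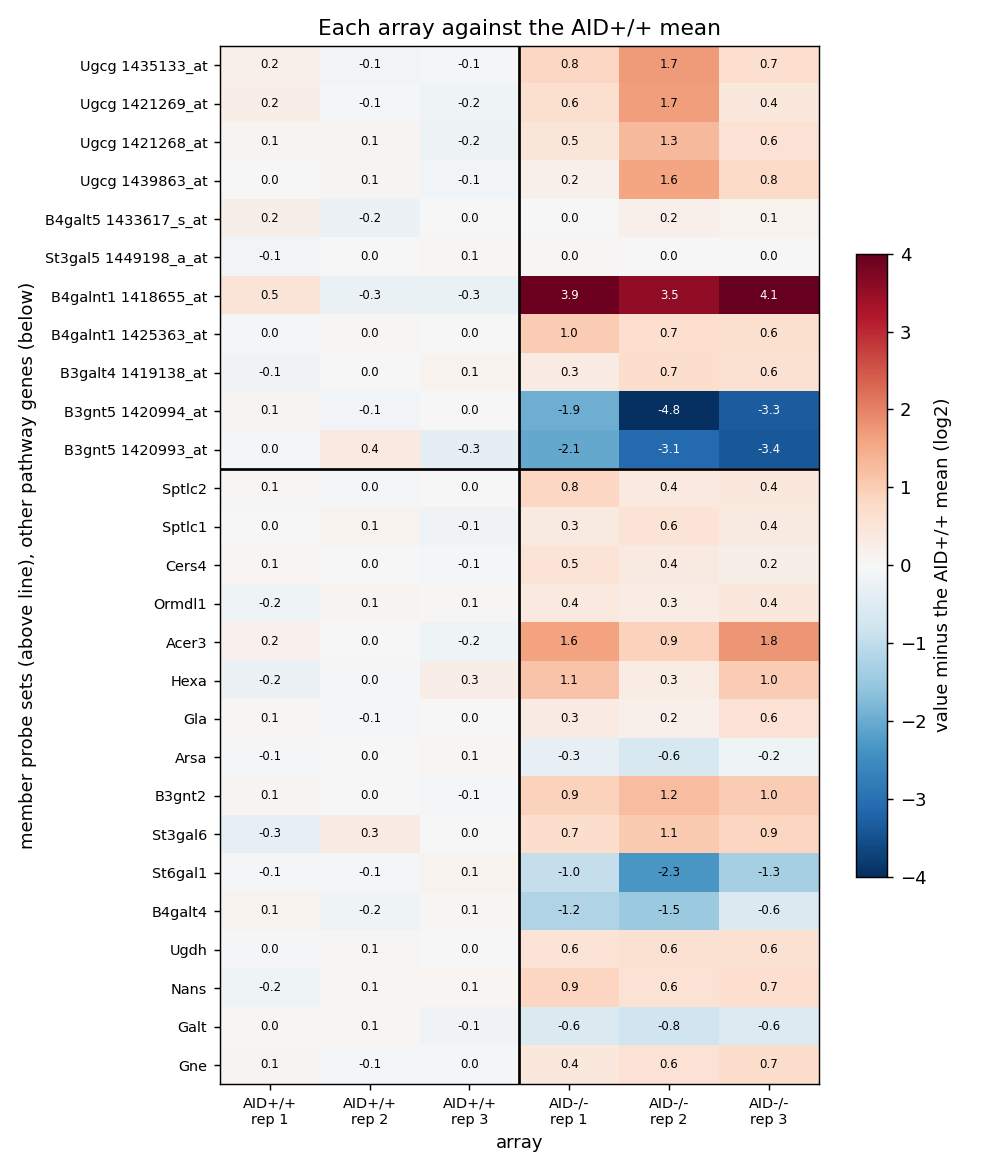
Value of each array minus the mean of the 3 AID+/+ arrays (log2, colour and printed number) for the 11 member probe sets that were not dim and, below the line, the 4 genes of smallest p in each pathway list. The AID-/- arrays share the sign at Ugcg, B4galnt1, B3galt4 and B3gnt5, and replicate 2 shows the strongest departure at Ugcg and at B3gnt5 probe set 1420994_at.

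The AID-/- arrays did not rank alike across the members. Among the 7 member probe sets past the threshold, replicate 2 lay farthest from the AID+/+ mean at 4, replicate 3 at 2 and replicate 1 at 1. Some array must lie farthest at each probe set, and the split was not computed over all called probe sets, so nothing is read from it. Replicate 2 was the highest array for Ugcg at each probe set, yet the lowest AID-/- array for B4galnt1 at 1418655_at (7.36). The array with the most B3gnt5 signal left, AID-/- replicate 1, had the highest value of B4galnt1 at 1425363_at (5.28). At 1418655_at the highest was instead AID-/- replicate 3 (7.90, against 7.73 in replicate 1).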

How the data were processed

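The authors deposited log2 expression values, 1 column for each of 6 arrays. RMA and Partek are named in the submitters' processing notes, with no version or order of use. RMA normalises between arrays and can compress low signals. Scanner files and detection calls were not used here, and the number of arrays limits the precision.

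From 45101 probe sets 64 array controls were left out. Of the other 45037 the annotation gave 34945 exactly 1 symbol, 932 several and 9160 none; 34741 were matched by Entrez identifier to RefSeq names (GRCm38.p6). The difference AID-/- minus AID+/+ was estimated with limma 3.58.1 (R 4.3.3), with lmFit and eBayes on the group alone, two-sided, and tested on simulated data. Benjamini-Hochberg adjustment ran over 45037 probe sets for members and over 18193 genes, each at its probe set of highest mean, for pathway genes; the threshold was 0.05. The members and lists were chosen with earlier results of these data known. Named pathway genes are the 4 of smallest p in each list, and Cmah in addition. Genes given only for their other probe sets are not counted among them.

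Deviations of same-numbered replicates correlated at -0.05, -0.07 and 0.03, so they were not paired. The alternatives tried were other scalings (quantile, median), a dim filter, other moderation, array weights, a replicate block, a threshold of 0.01, averaged probe sets and leaving out each array.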

Additional observations from a re-analysis of the deposited data

How the results depend on the processing

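Of the alternatives in scaling, filtering, moderation, weighting and blocking, the member counts of 5 probe sets higher and 2 lower moved by over 1.5 times under no moderation (1 higher and 0 lower in the ordinary linear model, with 6 and 2 at an unadjusted p under 0.05) and at an adjusted p under 0.01 (2 higher). The share of all probe sets at an unadjusted p under 0.05 was not computed, so nothing is read from the unadjusted counts. Leaving out 1 array gave 2 to 6 higher and 2 to 2 lower. The member differences kept within 1 SD of the arrays under every alternative except 1460241_a_at of St3gal5 with quantile normalization (0.18) and B4galnt1 with averaged probe sets (2.31), and no called difference changed sign. The filter on dim probe sets, which required a mean over all 6 arrays above the median of such means (4.89), kept 10 of the 21; it dropped 1425363_at of B4galnt1, which is not dim by its AID-/- mean.

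Without moderation limma called 2363 probe sets and 1635 genes in all; at an adjusted p under 0.01 it called 3250 and 1755, and with 1 array left out 4307 to 6109 and 2142 to 3214. In the ceramide list, no moderation left 1 gene higher (6 at an unadjusted p under 0.05), an adjusted p under 0.01 left 0 (limma, 7 unadjusted), averaged probe sets gave 1 lower, and leaving out 1 array gave 0 to 3 higher and 0 to 1 lower. Among the other transferases, the dim filter left 3 higher and the replicate block 3 higher, no moderation 1 higher and 1 lower, an adjusted p under 0.01 1 higher and 0 lower (limma, 7 lower unadjusted), and leaving out 1 array 2 to 4 higher and 3 to 5 lower. In the breakdown list, no moderation left 0 higher (2 unadjusted), an adjusted p under 0.01 left 1, and leaving out 1 array gave 1 to 3 higher and 0 to 2 lower. In the sugar supply list, no moderation left 3 higher and 1 lower, an adjusted p under 0.01 3 higher and 1 lower, and leaving out 1 array 3 to 5 higher and 2 to 2 lower. The causes were not tested, beyond the stricter threshold and fewer arrays themselves. Nothing is read from the unadjusted counts of the lists, since that share was not computed over all genes. Without pairing in the samples, the replicate block changed no other count by over 1.5 times and kept 5 member probe sets higher and 2 lower. Of the named pathway genes, calls were lost in 46 single comparisons and gained in 5, with no change of sign.

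No scaling moved the median of all probe sets by over 0.1: it was -0.04 as deposited, -0.02 after quantile normalization and -0.01 after median centring. Signal near the lower end of the scale limits B4galt6, St8sia1 and A4galt.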
